A study of Mus musculus with 29 samples.

Results

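Mitochondria carry their own ribosome, the mitoribosome, whose RNAs are copied from mitochondrial DNA and whose proteins are all encoded in the nucleus, made in the cytosol and imported. The genes of these proteins were followed here in mouse brain after stroke. They were taken as every row of the count files whose Ensembl ID maps to a mouse symbol starting with Mrpl or Mrps and a number, pseudogenes left out, which gave 78 of 25746 genes. All 78 passed the filter on low counts and were tested among 17031 genes. By the known make-up of the mitoribosome, 51 encode large subunit proteins and 26 small subunit proteins, and Mrps36 keeps a ribosomal name although its product is a component of the 2-oxoglutarate dehydrogenase complex. Of the large subunit genes, 30 have a bacterial counterpart and 21 are specific to mitochondria, and of the small subunit genes these are 16 and 10. Mrps18a is counted with the large subunit, where its product sits.

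The mitoribosome translates only the few mRNAs that mitochondrial DNA encodes, all of them for subunits of the respiratory chain and of ATP synthase, and it is anchored to the inner membrane where these subunits are inserted. Its proteins that have bacterial counterparts build the conserved core around the ribosomal RNA, whereas the mitochondria-specific ones lie mainly at the surface. Brain tissue depends on oxidative phosphorylation, and both neurons and glia express the full set.

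RNA sequencing of polyA-selected RNA covered 29 brain samples in 8 groups from mice of both sexes aged 3 months. Non-stroked samples came from 4 wildtype (WT) C57BL/6 mice, 3 Rag2-/- mice, in which lymphocytes cannot rearrange their receptor genes, and 4 NSG (NOD scid gamma) mice, which are short of NK cells as well and differ from the others in strain background. Cortex taken around a photothrombotic stroke of the right sensorimotor cortex, 21 days after injury, came from 4 WT, 3 Rag2-/- and 3 NSG mice, from 3 WT mice on tacrolimus from day 0 (WT-Tacr acute) and from 5 WT mice on tacrolimus from day 7 (WT-Tacr delayed). Tacrolimus is a calcineurin inhibitor that was released from implanted pumps, and no non-stroked mice on tacrolimus were analysed here, so the same 4 non-stroked WT samples served as controls for 3 stroked groups. The control tissue is described both as the opposite side of the brain and as tissue of naive mice, so these samples are called non-stroked. The numbers of NSG and tacrolimus mice that the methods give for sequencing are lower than the numbers of libraries analysed here. Libraries may therefore share animals, stroked and non-stroked ones of a strain included, and a mouse below stands for 1 library.

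Library and label checks come before the results. Total counts ran from 17789044 to 43403413. The names of 20 samples start with Imm2 and those of 9 with TF. All non-stroked, Rag2-/- and NSG samples are Imm2 and all WT-Tacr delayed samples are TF, while stroked WT mice are split 2 and 2 and WT-Tacr acute mice 1 and 2. TF libraries were shallower, with a median total of 23155303 against 37223696. Rag2 had at most 2 counts in any sample, WT included, so it checks no label, whereas Il2rg, which is disrupted in NSG mice, lay at 0.784 to 0.979 CPM in stroked NSG mice and at 2.11 to 3.46 CPM in stroked WT mice. Without stroke it was as low in WT mice as in NSG mice. The tissue carried neuronal transcripts in every sample, with 4294 to 7694 CPM summed over 6 neuron markers. Microglia and macrophage markers summed to 203 to 290 CPM in non-stroked samples and to 272 to 1069 CPM in stroked ones, and 7 of 8 rose in each stroke comparison. Choroid plexus markers varied within groups, from 5.99 to 809 CPM among non-stroked WT mice. In bulk tissue, fewer cells of a type and less RNA per cell cannot be told apart.

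The summed level of the 78 mRNAs was even between most mice. CPM (counts relative to the TMM-scaled library size) were summed over the genes of each sample. In 28 mice this sum lay between 1572 and 1873 CPM. Non-stroked WT mice had 1645, 1640, 1747 and 1698 CPM, stroked WT mice 1835, 1755, 1620 and 1658 CPM and stroked Rag2-/- mice 1672, 1642 and 1758 CPM, so these groups overlapped. Stroked NSG mice had 2636, 1662 and 1798 CPM. The first of them, NSG mouse 1, stood apart from all other samples and had the highest value of all 29 samples for 65 of the 78 genes.

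**Figure D1:**
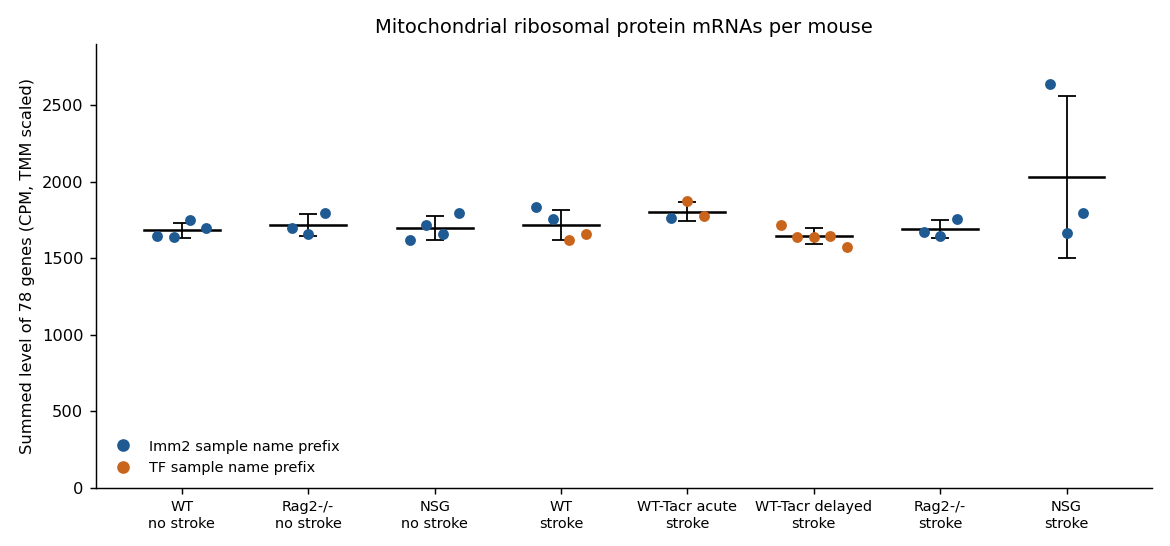
Summed level of the 78 mitochondrial ribosomal protein genes in each mouse (points; y axis in CPM, TMM scaled), by group, with the group mean (line) and SD (bar), coloured by the prefix of the sample name. Apart from 1 stroked NSG mouse at 2636 CPM, all mice lie between 1572 and 1873 CPM.

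Levels differed between genes by more than they differed between groups. Per kilobase of exon in non-stroked WT mice (mean ± SD, n = 4), Mrpl41, a mitochondria-specific large subunit protein, was highest with 37.4 ± 1.42 CPM per kilobase, followed by Mrps12 with 26.6 ± 2.14 and Mrpl12, the stalk protein that is also known to bind mitochondrial RNA polymerase, with 25.5 ± 1.56. The values of Mrps12 and Mrpl12 did not differ beyond their spread. Mrpl13 with 1.70 ± 0.107, Mrpl33 with 1.36 ± 0.0958 and Mrpl23 with 1.0 ± 0.139 were lowest on this scale. Their annotated exons cover 7936, 7326 and 4883 bases, and the transcripts used in brain may be shorter than the union of exons that the scale divides by.

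The first question was what stroke did to these genes in each group. In the comparison of stroked with non-stroked mice of the same strain, a gene is called at an adjusted p below 0.05 (edgeR's quasi-likelihood test, Benjamini-Hochberg over all 17031 genes, no minimum fold change). Over the 5 stroke comparisons, 47 of the 78 genes were called at least once, 31 never and none in all 5, and Mrpl42 was the only one called in both directions. The changes were small, between −0.94 and 0.86 on the log2 scale for all genes in all 5 comparisons.

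**Figure D2:**
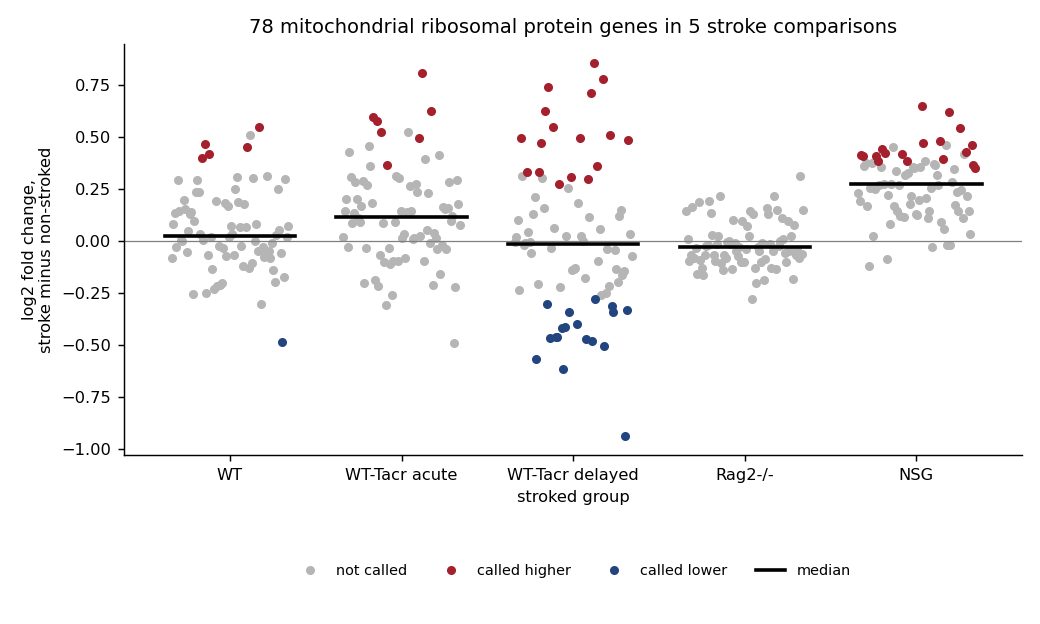
Log2 fold change of each of the 78 genes (points, in alphabetical order within a column) between stroked and non-stroked mice of the same strain, for 5 stroked groups (x axis), with calls in red (higher) and blue (lower) and the median as a black line. Calls lie on both sides of 0 with delayed tacrolimus (17 higher, 18 lower), only above 0 in NSG mice (18), and there are 0 in Rag2-/- mice.

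In stroked WT mice 5 genes rose, all of them with bacterial counterparts, and 1 fell. The 5 are Mrps18c and Mrps11 of the small subunit and Mrpl33, Mrpl36 and Mrpl30 of the large subunit. They make up 6.41% of the 78 genes, where 15.2% of all genes tested rose, and the 1.28% that fell stand beside 11.6%. The median log2 fold change was 0.02, with 0.00 over all genes. Mrps18c had 7.03, 7.10, 7.82 and 7.39 CPM in non-stroked mice and 9.95, 8.31, 12.3 and 12.6 CPM in stroked mice. The groups did not overlap, and the 2 higher stroked values came from TF mice. Its log2 fold change was 0.55 (SE 0.173, adjusted p = 0.0210). Mrpl33, whose bacterial counterpart lies near the tRNA exit site, changed by 0.47 (SE 0.156, adjusted p = 0.0287), Mrps11 by 0.45 (SE 0.143, adjusted p = 0.0213), Mrpl36 by 0.42 (SE 0.151, adjusted p = 0.0408) and Mrpl30 by 0.40 (SE 0.143, adjusted p = 0.0401). Mrps36 fell by 0.49 (SE 0.174, adjusted p = 0.0401), from 7.92, 6.28, 7.69 and 8.19 CPM to 7.17, 5.70, 4.26 and 4.25 CPM, with both TF mice lowest. Scaled by total counts instead of TMM, 18 genes rose and 0 fell, and the median over all genes moved by the same step, from 0.00 to 0.14. Among Imm2 samples alone, 0 of the 78 genes were called (2 at an unadjusted p below 0.05, edgeR), where 8.72% of all genes were, and the log2 fold changes of the 5 genes were between 0.20 and 0.32. With the prefix as a covariate, or without non-stroked WT mouse 1 or either TF mouse, 0 were called as well, and without stroked WT mouse 2 there were 13. Markers of other cells moved in the WT comparison (edgeR). The neuron markers Snap25, Syt1 and Rbfox3 and the endothelial markers Flt1 and Cldn5 were lower. The fibroblast markers Col1a1, Col1a2, Dcn and Lum and the T cell markers Cd3e, Cd3g and Cd8a were higher. The astrocyte markers Gfap, Aqp4, Slc1a3 and Aldh1l1 were higher too. Other markers of these cells were not called, and their part in the result was not tested.

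For acute tacrolimus mice 1 (Imm2) and 2 (TF) the name of the count file differs from the sample title, and the sample recorded for the file was used. With acute tacrolimus 7 genes rose and 0 fell. They were the 5 of the WT comparison together with Mrps14 and Mrpl4, again all with bacterial counterparts, and make up 8.97%, beside 6.18% of all genes that rose and 2.36% that fell. Both comparisons use the same 4 non-stroked samples. The median log2 fold change of the 78 genes was 0.12, and 0.01 over all genes. Mrps14, a core protein of the small subunit head, had 11, 11.1, 14.1 and 11.8 CPM in non-stroked WT mice and 12.5, 26.3 and 24.6 CPM in the 3 treated mice. The lowest of these, within the range of the non-stroked mice, was the Imm2 mouse. Its log2 fold change was 0.81 (SE 0.215, adjusted p = 0.0251). Mrpl4, whose bacterial counterpart lines the peptide tunnel, rose from 28, 31.8, 29.2 and 28.8 CPM to 34.5, 39.0 and 40.4 CPM with no overlap, by 0.37 on the log2 scale (SE 0.0846, adjusted p = 0.0131). With the prefix as a covariate 0 of the 78 were called (5 at an unadjusted p below 0.05, edgeR), where 0.258% of all genes were higher and 0.047% lower. When either TF mouse was left out, 0 were called, and without the Imm2 mouse 20 were. In a fit of the 2 groups alone 0 were called (28 at an unadjusted p below 0.05). Mouse 2 is a TF mouse and the highest of all 29 samples for 9 of the 78 genes. Its microglia and macrophage markers summed to 272 CPM. That lies above the 203 to 243 CPM of non-stroked WT mice, within the 203 to 290 CPM of all non-stroked mice. Treated mice 1 and 3 had 322 and 722 CPM. The fibroblast markers of mouse 2 summed to 82.5 CPM. They summed to 81.2 to 91.9 CPM in non-stroked WT mice and to 81.2 to 177 CPM in all non-stroked mice. The part of these markers in the result was not tested.

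With delayed tacrolimus 17 genes rose and 18 fell, 21.8% and 23.1% of the 78. Of all genes, 27.6% rose and 27.6% fell in this comparison. The median log2 fold change was −0.01, and 0.00 over all genes. The genes with the largest rises were Mrps14 by 0.86 (SE 0.193, adjusted p = 0.000667), Mrps18c by 0.78, Mrpl33 by 0.74, Mrps11 by 0.71, Mrpl30 by 0.62 and Mrpl36 by 0.55, with adjusted p between 0.000141 and 0.00269. These 6 genes are the set that rose in the acute comparison without Mrpl4, against the same non-stroked samples. The largest falls were those of Mrps36 by 0.94 (SE 0.168, adjusted p = 6.27e-05), Mrpl42 by 0.62, Mrpl22 by 0.57, Mrps2 by 0.50, Mrps12 by 0.48 and Mrpl58 by 0.47. Mrpl22 and Mrps12 belong to the conserved core, Mrps12 being the decoding centre protein, Mrpl42 is mitochondria-specific, and Mrpl58 is a peptidyl-tRNA hydrolase, known as Ict1, that became part of the large subunit. Markers of other cells moved in the same comparison, with 4 of 6 neuron markers lower and 4 of 5 fibroblast markers higher. The neuron markers summed to 4294 to 5104 CPM in delayed mice and to 6920 to 7694 CPM in non-stroked WT mice, and the fibroblast markers to 336 to 1274 CPM and to 81.2 to 91.9 CPM. Their part in the result was not tested. Scaled by total counts, 35 rose and 5 fell, and the median over all genes moved from 0.00 to 0.24. All values for these mice are set against Imm2 samples, so tacrolimus, stroke and the TF prefix cannot be told apart in them.

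The prefix could be looked at within untreated stroked WT mice, of which 2 are TF and 2 are Imm2. Between them 3 of the 78 genes were higher in TF mice and 12 lower (edgeR, adjusted p below 0.05), 3.85% and 15.4%, beside 5.1% and 9.51% of 17661 genes tested. Scaled by total counts this was 9 higher and 5 lower. Without stroked WT mouse 1, 2, 3 or 4 the calls in both directions came to 5, 6, 7 and 5, and a fit of these 4 mice alone gave 27. The 3 higher genes are Mrps14, Mrpl33 and Mrps11. This contrast shares no sample with that of delayed tacrolimus against non-stroked mice. Of the 17 genes that rose with delayed tacrolimus, 16 were higher in TF than in Imm2 stroked WT mice, and of the 18 that fell, all 18 were lower. The matching shares among all genes called with delayed tacrolimus are not given here, so these counts are not shown to be particular to the 78 genes. Across the 78 genes the 2 sets of log2 fold changes had a Pearson r of 0.897, as a description across genes that share libraries and depth within each set, and across 17031 genes r was 0.665.

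**Figure D3:**
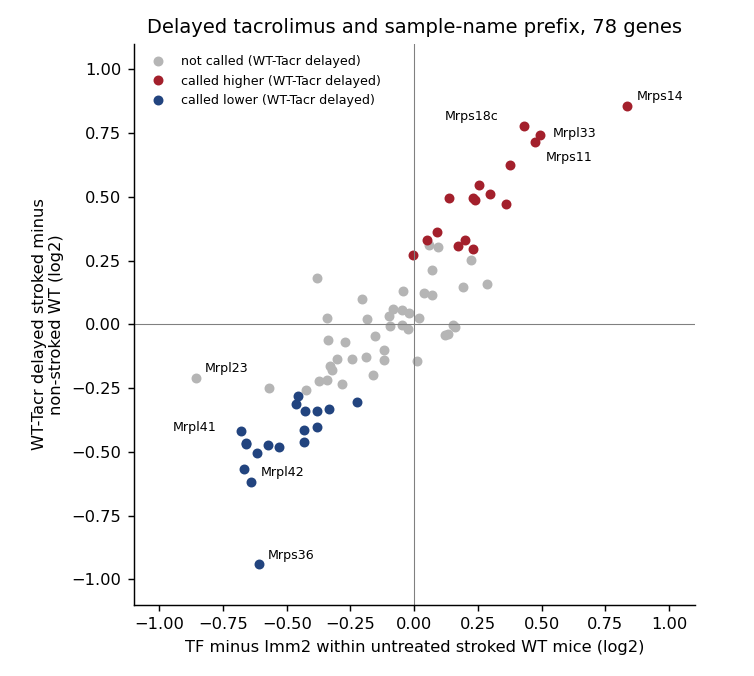
Log2 fold change of stroked WT-Tacr delayed mice against non-stroked WT mice (y axis) and of TF against Imm2 samples within untreated stroked WT mice (x axis), 78 genes (points, coloured by the call with delayed tacrolimus). The genes lie along the diagonal, with Mrps14 at the upper end (0.84 on x, 0.86 on y) and Mrps36 lowest on y (−0.61 on x, −0.94 on y).

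The same split was seen in single mice. Mrps14 had 12.2 and 12.3 CPM in the Imm2 stroked WT mice and 23.2 and 21.0 CPM in the TF ones. It had 22.5, 22.8, 20.6, 21.4 and 21.7 CPM in WT-Tacr delayed mice, so that all 9 TF mice, treated or not, lay above all 20 Imm2 mice, the highest of which was NSG mouse 1 with 19.4 CPM. Mrpl42 had 38.2 and 40.8 CPM in Imm2 and 24.7 and 26.4 CPM in TF stroked WT mice, and 25.9, 23.4, 24.2, 24.6 and 25.1 CPM with delayed tacrolimus. The treated mice thus lay near the untreated TF mice, and the untreated Imm2 mice near the non-stroked ones with 38.1, 36.4, 38.1 and 38.5 CPM. Mrps2, a core protein of the small subunit, had 33 and 32.7 CPM in Imm2 stroked WT mice, 19.8 and 23.4 CPM in TF ones and 23.6, 23.7, 25.5, 24.4 and 21.4 CPM with delayed tacrolimus.

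Over the 12 stroked mice of the 3 WT groups, 15 genes were higher in each of the 9 TF mice than in any of the 3 Imm2 mice and 26 were lower in each. These 41 genes are 52.6% of the 78, where 23.8% of all genes tested separated in this way, 10.8% higher and 12.9% lower. Over all 29 mice, 2 genes lay higher in every TF mouse and 10 lower, 15.4% of the 78 beside 5.93% (2.01% higher and 3.92% lower). The second of the 2 higher ones, Mrpl3, was chosen after its values were seen. It was at 51.7 to 63.2 CPM in TF mice and at 33.9 to 51.1 CPM in Imm2 mice.

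With the prefix as a covariate in the fit, 0 of the 78 genes were called in the delayed comparison (2 at an unadjusted p below 0.05, edgeR, smallest adjusted p = 0.0721), while 9.0% of all genes still were. The genes that had risen then had a median log2 fold change of 0.13 in place of 0.49, those that had fallen −0.04 in place of −0.44, and Mrps14 turned to −0.062. Compared directly among TF mice, WT-Tacr delayed and untreated stroked WT mice differed in 0 of the 78 genes (2 at an unadjusted p below 0.05, edgeR) and in 0 of all genes. The mRNAs that the mitoribosome translates also differed with the prefix. Their median log2 difference from the non-stroked WT mean, over the 13 encoded by mitochondrial DNA, was −0.79 to −0.56 in the 9 TF mice, all stroked, and −0.26 to 0.34 in the 9 stroked Imm2 mice. In the delayed comparison 8 of the 13 fell and 3 rose, mt-Co3 by 2.16, mt-Atp8 by 1.31 and mt-Atp6 by 1.12, with a median of −0.69. Markers of other cells differed between the untreated stroked WT mice as well. The median log2 difference of 6 neuron markers from the non-stroked WT mean was −0.20 and −0.24 in the Imm2 mice and −0.59 and −0.53 in the TF mice, where 3 of the 6 were called lower and 1 higher. The 5 fibroblast markers summed to 267 and 386 CPM in Imm2 and to 534 and 562 CPM in TF mice, and the choroid plexus markers to 11.3 and 13.4 CPM and to 154 and 251 CPM, with 0 called in either list (edgeR). The part of depth and of these cells in the prefix result was not tested.

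**Figure D4:**
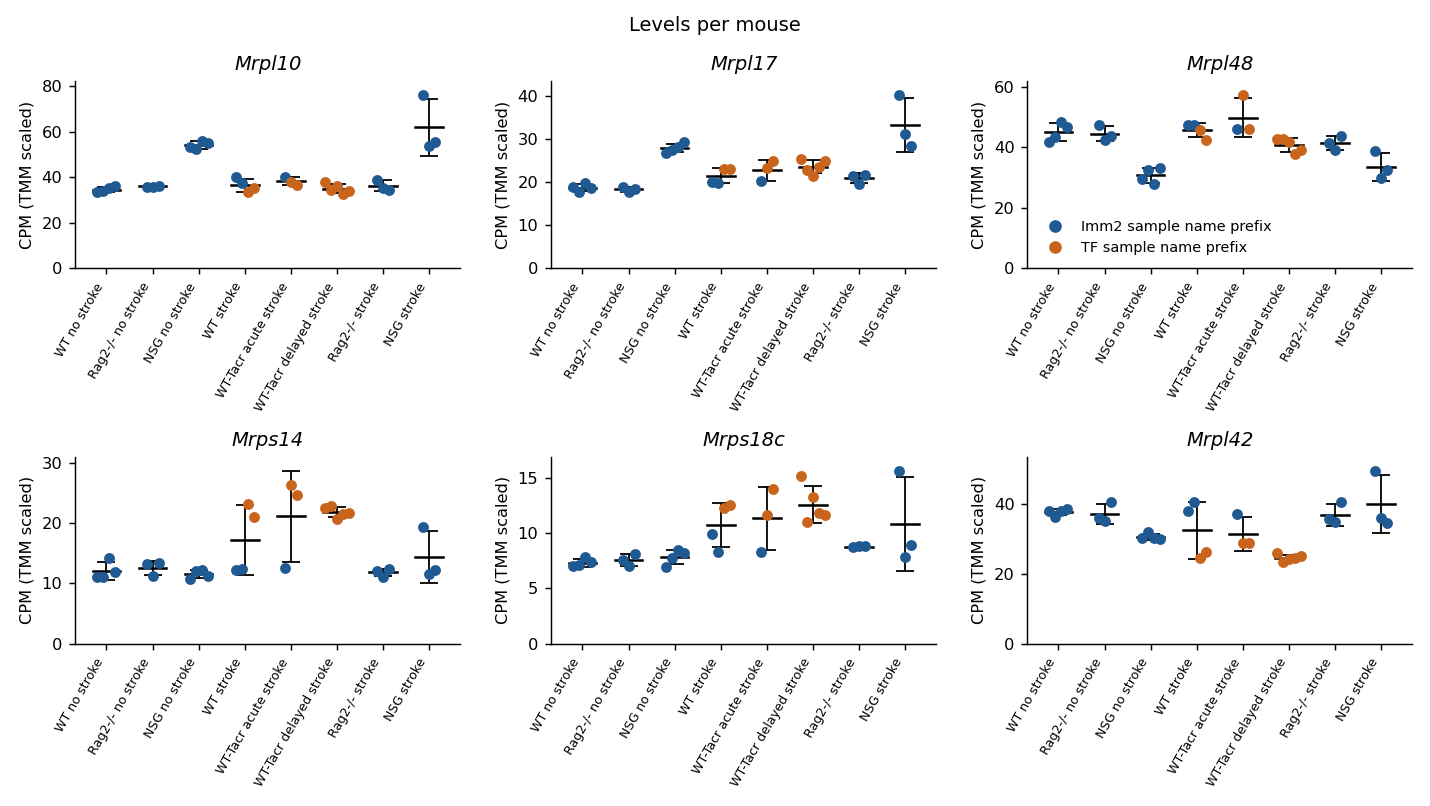
CPM per mouse (points) of 6 genes in 8 groups, with group mean (line) and SD (bar) and the sample name prefix as colour. Mrpl10 and Mrpl17 separate NSG mice from the other strains, Mrpl48 does so except for 1 stroked NSG mouse at 38.6 CPM beside a delayed mouse at 37.7 CPM, and Mrps14, Mrps18c and Mrpl42 separate orange TF from blue Imm2 mice within stroked WT groups.

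Members that rose and fell with delayed tacrolimus were also set side by side by make-up and level, and the differences were not tested. Of 46 proteins with a bacterial counterpart, 16 rose and 7 fell, and of 31 mitochondria-specific proteins 1, Mrpl53, rose and 10 fell. Of all genes tested, 27.6% rose and 27.6% fell in this comparison. The class medians of the log2 fold change were 0.07 and −0.16. Between TF and Imm2 stroked WT mice they were 0.02 and −0.33. The genes that rose had a median level of 11.5 CPM (7.34 to 29.5) in non-stroked WT mice. Those that fell had one of 29.98 CPM (7.52 to 43.3), so the levels overlapped. The median GC content of their longest coding transcripts was 49.4% for genes that rose and 49.5% for genes that fell. The head-to-head pair Mrps11 and Mrpl46 went apart. Mrpl46, chosen after its values were seen, fell by 0.34 (SE 0.135, adjusted p = 0.0357) with delayed tacrolimus while Mrps11 rose by 0.71. Their RefSeq starts on chromosome 7 lie 41 bases apart, and their annotated exons share 173 bases on opposite strands, which matters if the counting did not use strand.

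In NSG mice 18 genes rose after stroke and 0 fell. This is 23.1% of the 78, beside 13.0% of all genes that rose and 8.89% that fell. The median log2 fold change was 0.27 (0.03 over all genes), and 73 of 78 values were above 0. The rises were led by Mrpl52 by 0.65 (SE 0.160, adjusted p = 0.00603), Mrps21 by 0.62 (SE 0.170, adjusted p = 0.0113), Mrps28 by 0.54, Mrps16 by 0.48, Mrpl53 by 0.47 and Mrps6 by 0.46, with adjusted p of 0.0344, 0.0104, 0.0493 and 0.0189 for the last 4. Mrps21, Mrps28, Mrps16 and Mrps6 are small subunit proteins with bacterial counterparts, and Mrpl52 and Mrpl53 are mitochondria-specific large subunit proteins. Of proteins with a bacterial counterpart 13 of 46 were called, and of mitochondria-specific ones 5 of 31.

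These calls rested on 1 library. NSG mouse 1 lay above all 4 non-stroked NSG mice in 76 of 78 genes (97.4%, beside 41.0% of all genes tested), mouse 2 in 9 (11.5%, beside 30.9%) and mouse 3 in 32 (41.0%, beside 25.8%). Mouse 2 lay below all of them in 22 (28.2%, beside 32.9%). The median log2 difference from the non-stroked NSG mean was 0.67 in mouse 1, −0.04 in mouse 2 and 0.09 in mouse 3, while the median over all genes tested was 0.06 in mouse 1. Mrps21 had 12.9, 15.4, 12.8 and 15.3 CPM in non-stroked NSG mice and 31.7, 16.8 and 16.6 CPM in stroked ones. Mrpl52 had 14.3, 17.5, 15.2 and 20.02 CPM and 36.5, 20.8 and 21.4 CPM. For both genes the groups did not overlap, and mouse 1 set the size of the difference. In 7 of the 78 genes, all among the 18 called, every stroked NSG mouse lay above every non-stroked one. This is 8.97%, beside 13.6% of all genes tested. Mouse 1 was the highest of the NSG mice in all 18.

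**Figure D5:**
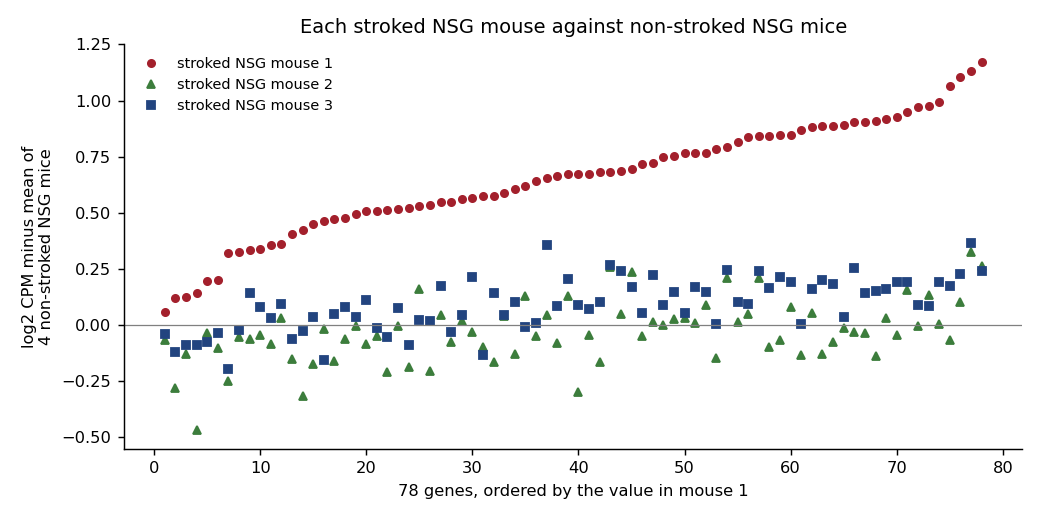
Log2 CPM of each stroked NSG mouse minus the mean of 4 non-stroked NSG mice (y axis) for the 78 genes (x axis, ordered by mouse 1). Mouse 1 (red) is above 0 for all 78 genes, whereas mouse 2 (green) is above 0 for 29 and mouse 3 (blue) for 61.

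Without NSG mouse 1, 1 gene of the 78 was called, Mrpl4, and the median log2 fold change was 0.03. Mrpl4 had 28.8, 29.5, 28.6 and 31.6 CPM in non-stroked and 47.6, 35.4 and 35.7 CPM in stroked NSG mice. Its log2 fold change was 0.42 with all mice (SE 0.0843, adjusted p = 0.00134) and 0.25 without mouse 1 (SE 0.0708, adjusted p = 0.0209). Over all genes, 8.03% still rose without this mouse. Without mouse 2, 44 of the 78 were called higher, beside 13.2% of all genes, and without mouse 3, 29, beside 15.5%. In a fit of NSG mice alone 0 were called, with 8 at an unadjusted p below 0.05. NSG mouse 1 was also apart in other gene groups, with a median log2 difference from the non-stroked WT mean of 1.14 for 83 cytosolic ribosomal protein genes and 0.91 for 86 nuclear genes of oxidative phosphorylation, against at most 0.66 and 0.39 in any other mouse. Its total count was 40291048. Its oligodendrocyte markers had a median of 0.81 on the same scale, the highest of all samples, against 0.41 and 0.22 in the other stroked NSG mice, and summed to 8850 CPM against 6319 and 5955 CPM. Stroked Rag2-/- mouse 1 came next with a median of 0.75 and had the highest sum, 9409 CPM, beside 1672 CPM over the 78 genes. With all NSG mice, the fibroblast markers Col1a1, Col1a2, Dcn and Lum and the astrocyte markers Gfap and Aqp4 were called higher in stroked mice (edgeR). The neuron marker Syt1 was called lower, and the other markers of these cell types were not called. The part of all these cells in the result was not tested.

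In Rag2-/- mice 0 of the 78 genes were called after stroke by edgeR and by DESeq2, and 1, Mrps6, had an unadjusted p below 0.05, where 21.7% of all genes had one. In this comparison 6.71% of all genes rose and 1.53% fell, 8.23% in all. Mrps6 had a log2 fold change of 0.31 (SE 0.148, adjusted p = 0.219) and Mrpl17 one of 0.19 (SE 0.105, adjusted p = 0.310). All 78 values lay between −0.28 and 0.31, with a median of −0.03. Mrps14 had 13.2, 11.1 and 13.3 CPM in non-stroked mice and 12, 11.1 and 12.3 CPM in stroked mice. Mrps18c had 7.59, 7.02 and 8.13 CPM in non-stroked mice and 8.72, 8.87 and 8.82 CPM in stroked mice, without overlap.

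Whether the response differed between strains was tested as a difference of differences. For Rag2-/- against WT, 0 of the 78 genes were called by edgeR and by DESeq2 (3 at an unadjusted p below 0.05, beside 4.19% of all genes), and 0 of all genes were called by edgeR. The smallest p was that of Mrpl53, with a difference of −0.58 (SE 0.247, adjusted p = 0.950), followed by Mrps11 with −0.46. For NSG against WT, 0 were called by both tools (17 at an unadjusted p below 0.05, beside 12.7% of all genes). By edgeR 0.0235% of all genes were higher and 0.00587% lower, 0.0294% in all. The smallest p values were those of Mrpl42 and of the mitochondria-specific Mrpl43, with differences of 0.60 (SE 0.186, adjusted p = 0.204) and 0.53 (SE 0.183, adjusted p = 0.253). Without NSG mouse 1 the median difference of the 78 genes turned from 0.21 to −0.01. Of the mice in these tests, all are Imm2 except for 2 of the 4 stroked WT mice, which are TF. In TF against Imm2 stroked WT mice, Mrps11 was called higher and Mrpl42 lower (edgeR), and Mrpl43 and Mrpl53 were not called.

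Among stroked WT mice, acute tacrolimus changed 0 of the 78 genes by edgeR and by DESeq2 (2 at an unadjusted p below 0.05, beside 12.7% of all genes), and edgeR called 0.0% of all genes. Mrps10 had a log2 fold change of 0.17 (SE 0.0803, adjusted p = 0.379) and Mrpl4 one of 0.18 (SE 0.0848, adjusted p = 0.391), and 64 of the 78 values were above 0. Delayed tacrolimus changed 0 by both tools (14 at an unadjusted p below 0.05, beside 20.3%), where edgeR called 0.0% of all genes and DESeq2 0.047% higher and 0.229% lower. Mrpl42 had −0.40 (SE 0.121, adjusted p = 0.154) and Mrpl32 −0.31 (SE 0.111, adjusted p = 0.162), and leaving out either untreated TF mouse gave 1 or 3 calls, Mrpl42 among them. Set against each other, delayed mice were lower than acute mice in 3 genes, Mrps12, Mrpl58 and Mrpl48, and higher in none, 3.85% beside 9.96% of all genes that were lower and 10.4% that were higher. Mrps12 had 32.2, 29.1 and 23.0 CPM in acute and 21.2, 20.3, 19.4, 19.4 and 18.8 CPM in delayed mice, a log2 difference of −0.51 (SE 0.157, adjusted p = 0.0263). Mrpl58 had 38.8, 35.7 and 29.8 CPM and 26.1, 26.4, 24.2, 25.7 and 21.7 CPM, and Mrpl48 had 46.1, 57.3 and 46 CPM and 42.7, 42.7, 41.8, 37.7 and 38.9 CPM. In none of the 3 did the groups overlap. Other measures differed between the same mice, and their part in the result was not tested. Of 8 microglia and macrophage markers 7 were higher in delayed mice and of 5 fibroblast markers 4, while 4 of 6 neuron markers were lower. The microglia and macrophage markers summed to 322, 272 and 722 CPM in acute mice and to 745 to 1069 CPM in delayed mice. Among TF mice alone 0 were called (15 at an unadjusted p below 0.05, edgeR). The TF acute mice had 29.1 and 23.0 CPM of Mrps12, 35.7 and 29.8 CPM of Mrpl58 and 57.3 and 46 CPM of Mrpl48. They belong to the comparison that picked these genes, so their place above the delayed mice is no separate test of the prefix. Leaving out the Imm2 acute mouse, the first TF acute mouse or the fifth delayed mouse gave 0 calls, whereas leaving out the other TF acute mouse gave 10.

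The strains were also compared at rest. Non-stroked NSG mice exceeded WT mice in 4 of the 78 genes and were lower in 1, 5.13% and 1.28%, beside 4.84% and 4.92% of all genes. All non-stroked mice are Imm2. With the prefix as a covariate 8 genes were called, and in a fit of the 2 groups alone 7 were higher and 8 lower. Mrpl10, which carries the stalk proteins of the large subunit, had 33.3, 33.8, 35.0 and 36.0 CPM in WT, 35.8, 35.9 and 36.3 CPM in Rag2-/- and 53.1, 52.2, 56.1 and 54.9 CPM in NSG mice. The NSG values lay above all others, with a log2 difference from WT of 0.65 (SE 0.0831, adjusted p = 3.52e-06). Mrpl17 had 18.8, 17.6, 19.8 and 18.5 CPM in WT, 18.9, 17.7 and 18.4 CPM in Rag2-/- and 26.7, 27.5, 28.1 and 29.1 CPM in NSG mice, which gave a log2 difference of 0.58 (SE 0.0903, adjusted p = 6.63e-05). Mrpl52 was higher by 0.55 (SE 0.152, adjusted p = 0.0182) and Mrpl15 by 0.38 (SE 0.104, adjusted p = 0.0169).

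Mrpl48, a mitochondria-specific large subunit protein, was the gene that was lower in NSG mice. It had 41.6, 43.2, 48.4 and 46.7 CPM in WT, 47.3, 42.4 and 43.7 CPM in Rag2-/- and 29.4, 32.3, 27.7 and 33.1 CPM in NSG mice, again without overlap, and fell by 0.55 (SE 0.0859, adjusted p = 5.78e-05). Against Rag2-/- mice, NSG mice were higher in Mrpl17 and Mrpl10 and lower in Mrpl55 and Mrpl48, 2.56% in each direction beside 3.07% and 3.26% of all genes. Mrpl55 had 18.4, 17.2 and 19.0 CPM in Rag2-/- and 12.2, 12.2, 11.4 and 12.8 CPM in NSG mice, a log2 difference of −0.58 (SE 0.134, adjusted p = 0.00646), and the 4 WT mice had 14.5 to 18 CPM, above the NSG mice and overlapping the Rag2-/- mice. Rag2-/- and WT mice differed in 0 genes by edgeR and by DESeq2 (0 at an unadjusted p below 0.05, beside 2.05% of all genes), and 0.00587% of all genes were called by edgeR. The smallest p values were those of Mrpl2 (0.21, SE 0.136) and Mrpl55 (0.20, SE 0.134), both with an adjusted p of 1.0.

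The strain differences were looked up again in stroked mice, which share no library with the comparisons at rest but may share animals with them. Stroked NSG mice exceeded stroked WT mice in 17 genes and were lower in 2, 21.8% and 2.56%, beside 6.6% and 6.27% of all genes. Of the 4 stroked WT mice 2 are TF and 2 Imm2, and all stroked NSG mice are Imm2. The 19 calls became 9 with the prefix as a covariate, 6 in Imm2 mice alone and 1 in a fit of the 2 groups alone (17 at an unadjusted p below 0.05), and without NSG mouse 1 there were 6 higher and 4 lower. Against stroked Rag2-/- mice, 10 were higher and 0 lower, 12.8%, beside 4.2% of all genes that were higher and 4.24% that were lower, and without NSG mouse 1 these were 4 and 2. With the covariate 19 genes were called and in the 2 groups alone 0 (10 at an unadjusted p below 0.05, edgeR). Mrpl10 differed from stroked WT by 0.76, and by 0.59 without NSG mouse 1 (adjusted p = 9.07e-07 and 3.52e-06). For Mrpl17 the values were 0.63 and 0.48, for Mrpl52 0.95 and 0.64, for Mrpl15 0.55 and 0.35 and for Mrpl48 −0.45 and −0.56, and each was called against stroked WT mice with and without this mouse. Against stroked Rag2-/- mice Mrpl15 was called with all mice (0.52, adjusted p = 0.00605) and not without mouse 1 (0.32, adjusted p = 0.0918), while Mrpl48 was not called with all mice (−0.31, adjusted p = 0.0534) and was without mouse 1 (−0.42, adjusted p = 0.0129). Against stroked WT mice Mrpl55 was not called with all mice (−0.24, adjusted p = 0.240) and was called without mouse 1 (−0.54, adjusted p = 0.00170). Against stroked Rag2-/- mice Mrpl55 had −0.24 with all mice (adjusted p = 0.312, edgeR) and was called without mouse 1 (−0.55, adjusted p = 0.0030). Over all 29 libraries, the 7 of NSG mice lay above the other 22 in Mrpl10, Mrpl17 and Mrpl15 (3.85%, beside 1.14% of all genes tested) and below them in none (beside 1.46%), the lowest NSG values being 52.2, 26.7 and 24.5 CPM and the highest other values 40.2, 25.2 and 24.1 CPM.

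The 3 Mrps18 genes encode related proteins at 3 places of the mitoribosome. The product of Mrps18a lies in the large subunit, those of Mrps18b and Mrps18c in the small subunit, and only Mrps18c is counted as the bacterial counterpart. In non-stroked WT mice Mrps18a had 23.5, 27.1, 27.3 and 26.9 CPM, Mrps18b 11.8, 10.3, 10.6 and 10.8 CPM and Mrps18c the 7.03 to 7.82 CPM given above. Mrps18c was the only one called in WT mice. Mrps18a was called in NSG mice (0.39, SE 0.137, adjusted p = 0.0407), with 59.4, 30.9 and 35.0 CPM in stroked and 30.1, 35.2, 29.0 and 32.8 CPM in non-stroked mice. These groups overlapped, and mouse 1 stood apart. Some 23.2% of the exon bases of Mrps18c are also annotated to Gm43511 on the same strand, and how reads there were assigned is not given in the sources used here. For Mrpl53 the share with Gm42688 is 88.0%, and for Mrps6 it is 19.9% with Gm49711. These are examples, and other genes of the set overlap neighbours as well. Mrpl48 shares 8.7% of its exon bases with Rab6a on the opposite strand, which had 466221 counts in all against 38916 for Mrpl48.

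The promoters were searched for 4 motifs of factors known to act on nuclear genes of mitochondria, on both strands of RefSeq windows (GRCm38.p6) that run from 250 bases before to 50 bases after each start. Windows were given for 69 of the 78 genes and for 27025 symbols in all. The ETS family letters CCGGAAG, the core bound by GABPA, stood in the windows of 26 of the 69 genes (37.7%) and of 9.93% of all genes. The YY1 letters AAGATGGC stood in 12 (17.4%) beside 3.19%, and the NFY letters CCAAT in 27 (39.1%) beside 41.1%. The NRF1 palindrome stood in 3, Mrpl32, Mrpl39 and Mrpl9 (4.35%), beside 1.07%. The ETS letters end in AAG and the YY1 letters begin with it, so that these 2 motifs can share those letters. A match describes letters and no binding. Genes that rose and genes that fell with delayed tacrolimus both held these letters, the ETS core in 6 of 15 and 7 of 17 genes with a window YY1 in 3 of 15 and 3 of 17, NRF1 in 1 of 15 and 2 of 17 and CCAAT in 4 of 15 and 9 of 17. Of the 6 largest rises and the 6 largest falls, 8 genes held ETS or YY1 letters, and Mrps14, Mrpl30, Mrps36 and Mrps2 held neither. All ETS and YY1 matches of the 8 are shown, the rises first, on the strand of the gene, while the CCAAT matches in Mrpl33, Mrpl36, Mrpl42, Mrps12 and Mrps36 are not. Each line has the motif or its reverse complement in capitals and 8 bases on either side.
Mrpl33, ETS, chr5:31613940-31613962, plus strand: cgcatgccCCGGAAGtagtcgtt
Mrps18c, ETS, chr5:100798595-100798617, plus strand: tcacgtgaCTTCCGGcccgggaa
Mrpl36, YY1, chr13:73330971-73330994, plus strand: gaccttacGCCATCTTtcttcctg
Mrps11, YY1, chr7:78783016-78783039, plus strand: cgggcgccGCCATCTTtctgtctt
Mrpl22, ETS, chr11:58171603-58171625, plus strand: ttccggtcCCGGAAGccggcctc
Mrpl58, ETS, chr11:115403727-115403749, plus strand: gcggaccgCCGGAAGagtgagca
Mrpl58, ETS, chr11:115403742-115403764, plus strand: agtgagcaCCGGAAGcggtcctg
Mrpl42, YY1, chr10:95501907-95501930, minus strand: attgaagcAAGATGGCgagcgcgc
Mrps12, YY1, chr7:28742005-28742028, minus strand: tggacgcaGCCATCTTggagtgga
Mrps12, ETS, chr7:28741806-28741828, minus strand: gaggaaccCCGGAAGgggctgga

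The bases before the start are shown for 3 genes that were called higher in non-stroked NSG than in non-stroked WT mice. They are those of the reference genome, which comes from C57BL/6J, and the sequence of NSG mice was not analysed here. ETS letters are in capitals, and none of the 4 motifs stands in the stretch before Mrpl10.
Mrpl10, chr11:97041432-97041581, plus strand: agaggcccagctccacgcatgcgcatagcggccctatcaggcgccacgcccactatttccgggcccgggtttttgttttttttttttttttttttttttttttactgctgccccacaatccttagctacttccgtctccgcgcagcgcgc
Mrpl17, chr7:105811088-105811337, minus strand: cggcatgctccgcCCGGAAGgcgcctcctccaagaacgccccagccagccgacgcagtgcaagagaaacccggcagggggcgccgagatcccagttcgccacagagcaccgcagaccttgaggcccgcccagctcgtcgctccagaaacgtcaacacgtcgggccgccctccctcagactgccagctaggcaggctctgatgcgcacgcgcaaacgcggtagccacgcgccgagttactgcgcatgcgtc
Mrpl52, chr14:54426659-54426908, plus strand: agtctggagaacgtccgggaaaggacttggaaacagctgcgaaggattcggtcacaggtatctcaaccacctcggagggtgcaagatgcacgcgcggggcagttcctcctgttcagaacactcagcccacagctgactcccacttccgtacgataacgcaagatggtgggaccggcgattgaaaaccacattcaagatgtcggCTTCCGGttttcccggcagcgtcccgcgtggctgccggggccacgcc

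Other genes of mitochondrial translation were read from lists. Of 5 mitoribosomal proteins with other symbols, 1 was called higher and 1 lower in NSG mice (Chchd1 and Ptcd3) and 1 each with delayed tacrolimus (Dap3 and Gadd45gip1). Of 22 assembly factors, 2 rose in WT mice (the GTPase Eral1 and the pseudouridine synthase Rpusd4), 2 rose with acute tacrolimus (Ddx28 and Rcc1l), 1 rose in NSG mice (C1qbp), 0 were called in Rag2-/- mice (edgeR), and 7 rose and 4 fell with delayed tacrolimus. Of 16 translation factors, 2 rose and 1 fell in WT mice, 1 rose with acute tacrolimus, 4 rose and 5 fell with delayed tacrolimus, and 0 were called in NSG mice (edgeR). Of 20 genes of mitochondrial aminoacyl-tRNA synthesis, Cars2 rose in WT mice and with acute tacrolimus, Mars2 fell in NSG mice, and with delayed tacrolimus 6 rose and 3 fell. These counts stand beside 15.2% of all genes that rose and 11.6% that fell in WT mice, 6.18% and 2.36% with acute tacrolimus, 27.6% each with delayed tacrolimus and 13.0% and 8.89% in NSG mice. The delayed values carry the TF prefix here too, as do 2 of the 4 stroked WT mice. NSG mouse 1 stood apart in some of these lists as well. The median log2 difference from the non-stroked WT mean is given for stroked NSG mice 1, 2 and 3. It was 0.57, −0.11 and 0.08 for the other symbols and 0.47, −0.08 and 0.01 for assembly factors. It was 0.22, −0.03 and 0.04 for aminoacyl-tRNA synthesis and 0.08, −0.13 and −0.06 for translation factors. Among 12 regulators of mitochondrial DNA expression and biogenesis, the coactivator Ppargc1a fell by 0.33 in WT mice (SE 0.0951, adjusted p = 0.0119), by 0.36 with acute tacrolimus (SE 0.103, adjusted p = 0.0350), by 0.53 with delayed tacrolimus (SE 0.0901, adjusted p = 3.43e-05) and by 0.42 in NSG mice (SE 0.103, adjusted p = 0.00572). In Rag2-/- mice it had −0.18 (SE 0.110, adjusted p = 0.349). With delayed tacrolimus Gabpb1, the partner of GABPA, fell by 0.32, as did Ppargc1b, Pprc1 and Tfb2m by 0.81, 0.55 and 0.63. Tefm, the elongation factor of mitochondrial transcription, rose by 0.55 in WT mice (SE 0.176, adjusted p = 0.0226) and by 0.69 with delayed tacrolimus (SE 0.169, adjusted p = 0.00142). Among untreated stroked WT mice Tefm was also called higher in TF than in Imm2 mice, as was Tfam, and Tfb2m lower. Gabpa and Yy1, the factors of the ETS and YY1 letters, were called neither in NSG mice nor with delayed tacrolimus, with log2 fold changes between −0.10 and 0.04. Nrf1 was called in NSG mice (0.30, SE 0.0780, adjusted p = 0.00863) and had 0.00 with delayed tacrolimus (adjusted p = 0.985).

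Cytosolic ribosomal protein genes are listed for comparison. Of 81 tested, 62 rose after stroke in WT mice and 0 fell, with a median log2 fold change of 0.52 beside the 0.02 of the mitochondrial set, and in Rag2-/- mice the medians were 0.32 and −0.03. Of 85 nuclear genes of oxidative phosphorylation tested, 8 rose in WT mice with a median of 0.12. The WT counts of both sets stand beside 15.2% of all genes that rose and 11.6% that fell. The difference between the gene sets was not tested.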

How the data were processed

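The authors deposited raw counts per Ensembl gene, 1 sample per file, for 29 samples. According to the study's methods the libraries were stranded and polyA-selected. The aligner, build and use of strand are not given in the sources used here. Names and positions came from GENCODE M21 on GRCm38, where 25712 of 25746 IDs matched. Groups came from the labels, and p-values measure the spread between these samples, which may be technical where libraries share an animal.

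Counts were fitted in R 4.3.3 with edgeR 4.0.16 (TMM, filterByExpr, quasi-likelihood, 1 fit of 8 groups, 17031 genes) and adjusted by Benjamini-Hochberg over all genes. The SE is the absolute log2 fold change over the square root of F. CPM used TMM library sizes, and log2 CPM a prior count of 2. TF against Imm2 was fitted with stroked WT mice split by prefix. The script was tested on simulated data. Alternatives were RLE and total count scaling, no filter, DESeq2 1.42.0, the prefix as covariate, fewer samples, a minimum log2 fold change of 1, leaving out each sample and a replicate block. Comparisons of stroked NSG mice with other stroked mice, the prefix contrast and TF-only fits were added after the data were seen.

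Genes are named if they are among the up to 6 largest calls in either direction of a stroke or resting comparison, called in another comparison, have the 2 smallest p where none is called, are among the 3 highest or lowest per kilobase, or are Mrps18 genes. Mrpl46 and Mrpl3 are exceptions. The set of genes, the lists and the motifs were chosen with earlier results of these data known. The NRF1 motif is given by name alone.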

Additional observations from a re-analysis of the deposited data

Results flagged for a closer look

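Levels of 26 genes and the summed level were examined in the groups of 4 or 5 mice, 108 tests in all, for a mouse far from the rest of its group, and 6 were found, about the 1 in 20 that chance gives. Mrpl33 had 8.91 CPM in 1 non-stroked WT mouse against 10.2 to 10.4 CPM in the others, and 10.6 CPM in 1 non-stroked NSG mouse against 11.1 to 11.2 CPM. In another non-stroked NSG mouse Mrpl42 had 32.0 CPM against 30.2 to 30.4 CPM. Mrpl22 had 12.6 CPM in 1 non-stroked NSG mouse against 11.3 to 11.5 CPM. Among non-stroked WT mice, Mrps2 had 36.2 CPM in 1 mouse against 32.7 to 33.2 CPM, and Mrps18a had 23.5 CPM in 1 mouse against 26.9 to 27.3 CPM. Groups of 3, among them stroked NSG mice with 1 mouse at 2636 CPM, were too small for this test.

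Stroke effects with delayed and with acute tacrolimus differed by the test of the difference, which is the direct comparison of the stroked groups, in Mrps12 (−0.51), Mrpl48 (−0.29) and Mrpl58 (−0.49). All delayed mice are TF and 1 of 3 acute mice is Imm2, and 0 of the 78 genes were called in a fit of TF mice alone (15 at an unadjusted p below 0.05, edgeR) and with the prefix as a covariate (5). In Mrps12, Mrpl48 and Mrpl58 the TF acute mice lay above all delayed mice, but they belong to the comparison that picked these genes, so this is no separate test.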

How the results depend on the processing

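Numbers of genes called of the 78 are given as totals of both directions. Beside 6 calls in stroked WT mice, total count scaling gave 18, and the prefix as covariate, Imm2 samples alone or a minimum log2 fold change of 1 gave 0. Leaving out 1 mouse at a time gave 0 to 13, with 0 without non-stroked WT mouse 1 or either TF stroked mouse, 3 without non-stroked WT mouse 3 and 13 without stroked WT mouse 2. Beside 7 with acute tacrolimus, total count scaling gave 17 and DESeq2 11, and the covariate, Imm2 alone, the groups compared alone and the minimum fold 0. In the Imm2 fit the lone acute mouse is assumed to vary like the other groups, and 0.24% of all genes were called. Leaving out 1 mouse gave 0 to 20, with 1 to 4 without 1 of the non-stroked mice. The 35 calls with delayed tacrolimus became 0 with the covariate or the minimum fold and 29 to 34 without 1 mouse, and the covariate turned the log2 fold change of Mrps14 with delayed tacrolimus to −0.062. The 18 calls in NSG mice became 28 with the covariate, 11 in Imm2 alone, 0 in the groups compared alone or with the minimum fold, and 1 to 44 without 1 mouse, with 7 and 6 without non-stroked NSG mouse 1 and 3. At rest, NSG against WT mice gave 8 with the covariate, 15 in the groups compared alone and 0 with the minimum fold beside 5, and NSG against Rag2-/- mice 7 and 0 for the last 2 beside 4. Delayed against untreated stroked WT mice gave 0 to 3 without 1 mouse. Delayed against acute mice gave 0 with total count scaling, the covariate, the groups compared alone, TF mice alone or the minimum fold, and 0 to 10 without 1 mouse, beside 3. Stroked NSG against stroked WT mice gave 9 with the covariate, 6 in Imm2 alone, 1 in the groups compared alone, 0 with the minimum fold and 10 to 34 without 1 mouse, beside 19. Against stroked Rag2-/- mice these were 19 with the covariate, 0 and 0 for the last 2 and 6 to 35 without 1 mouse, beside 10. TF against Imm2 gave 27 in the groups compared alone, 0 with the minimum fold and 5 to 7 without 1 mouse, beside 15. Where samples or groups were dropped there were fewer of them, and for the other changes the cause was not tested. Replicate numbers shared by non-stroked mice did not pair them, since the correlations of same-numbered samples ran from −0.26 to 0.11. The replicate block gave 5 (NSG against WT), 0 (Rag2-/- against WT) and 4 (NSG against Rag2-/-) calls, and the same samples unblocked 6, 0 and 5. RLE scaling and no filter moved none of these counts by over 1.5 times. Depth was at least 17789044 counts a sample and the level at least 1572 CPM over the set, and groups held 3 to 5 mice. The prefix and single mice also limit the results, as the values above show.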
